A study of Saccharomyces cerevisiae with 4 samples.

Results

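The comparison described here set a nab3-11 strain of budding yeast (Saccharomyces cerevisiae) against a wild type strain, both kept for 2 hours at 25 °C, the permissive temperature of the mutant. Its members were all non-control probe sets of the array with exactly 1 annotated gene, which came to 6504 of 9335 probe sets and represented 5656 genes. The nab3-11 strain is recorded as strain 1099 and the wild type strain as strain 1415, both were grown in YPD, a rich glucose medium, and total RNA was extracted with hot acid phenol. One Affymetrix whole-genome array was hybridised per group, and a separate pair of arrays carried nab3-11 and wild type RNA after 2 hours at 37 °C. The labels do not say that the strains are otherwise isogenic, so the nab3-11 allele and any other strain difference cannot be told apart. With 1 array per group, no difference has a replicate check, and no test or p-value was computed.

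Nab3 is an RNA-binding protein that works with Nrd1, a second RNA-binding protein, and the helicase Sen1 to end RNA polymerase II transcription early. The complex forms the 3′ ends of snoRNAs, the small RNAs that guide modification and processing of ribosomal RNA, and passes cryptic transcripts to the TRAMP polyadenylation complex and the nuclear exosome for trimming or decay. It also limits several protein-coding genes by stopping transcription near their starts, among them NRD1 itself and genes of nucleotide synthesis, and when termination fails after a snoRNA gene, transcription can run into the gene behind it.

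The titles and strain entries name both wild type arrays as wild type, while their descriptions name nab3-11 at 25 °C, and the titles were followed. A URA3 control probe set had 76.2 (25 °C) and 74.5 (37 °C) with nab3-11 RNA, and 168 (25 °C) and 165 (37 °C) with wild type RNA. The probe set of the URA3 gene itself had 81.6 in nab3-11 and 96.6 in wild type at 25 °C, and 48.2 in nab3-11 and 97.8 in wild type at 37 °C, so at 25 °C it hardly differed. At 25 °C, 56.5% of non-control probe sets in nab3-11 and 56.6% in wild type lay above the floor, a scaled signal of 21.8 below which values were not ordered. The ratio of 3′ to 5′ probe set signal was 1.49 in nab3-11 and 1.66 in wild type for actin, and 2.82 in nab3-11 and 6.08 in wild type for SPT15, so the SPT15 ratio differed between the arrays. The part of this difference in the results below was not tested. All 4 genes specific to cells of mating type α (MF(ALPHA)1, MF(ALPHA)2, STE3 and SAG1) were above the floor on both arrays, with summed signals of 6984 in nab3-11 and 7659 in wild type. Of 6 genes specific to mating type a, 0 in nab3-11 and 1 in wild type were above the floor, and their summed signal was 39.9 in nab3-11 and 48.8 in wild type. None of 13 meiosis genes was above the floor on either array. In RNA of whole cultures, fewer cells that express a gene and less RNA of it per cell cannot be told apart.

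At 25 °C, 4285 genes were measured, meaning that the higher of their nab3-11 and wild type signals lay above the floor. Of these, 50 (1.17%) were at least 2-fold higher and 23 (0.537%) at least 2-fold lower in nab3-11, and 3821 genes (89.2%) differed by less than 1.5-fold. In 341 of the measured genes only 1 signal lay above the floor, so the sign of their difference was fixed by the array that passed. The middle 50% of log2 differences, nab3-11 minus wild type, ran between -0.22 and 0.23 around a median of 0.01. Among the called genes, 68.5% were higher in nab3-11, and 56.0% after quantile normalization of the arrays, which left 28 higher and 22 lower. By quartile of mean signal, from the dimmest up, 1.40%, 2.89%, 1.87% and 0.654% of genes were called. The only repeat measurement of a gene within a pair of arrays comes from genes with several probe sets. In 193 such genes the log2 differences of the probe sets typically lay 0.39 apart (the median range). The 90th percentile of that range was 0.99. For the 9 spike-in control probe sets above the floor, the ratio of nab3-11 to wild type signal ran from 0.85 to 1.66, with a median of 1.115.

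**Figure D1:**
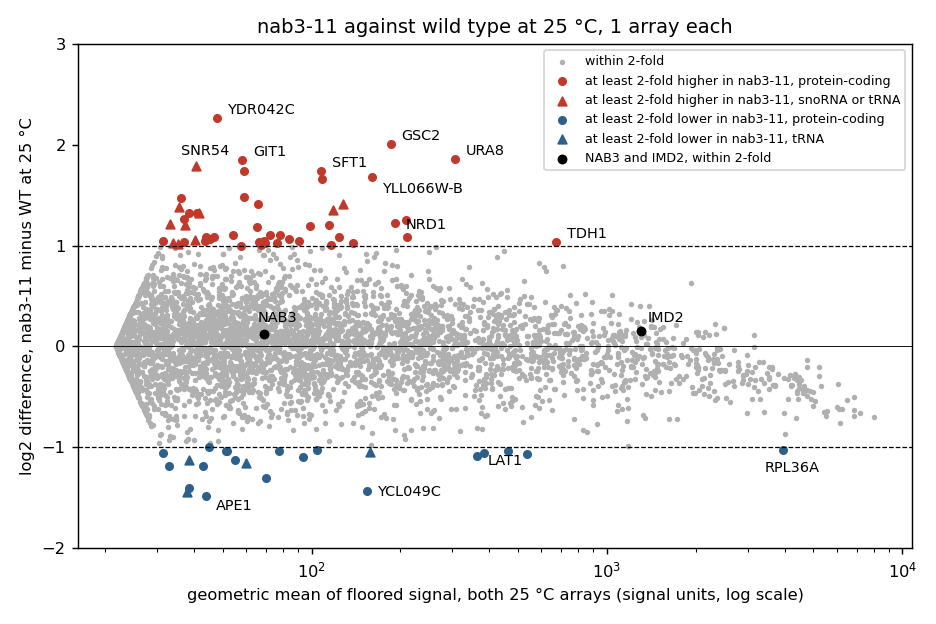
Log2 difference between nab3-11 and wild type at 25 °C (vertical axis) against the geometric mean of both floored signals (horizontal axis, log scale), 1 point per measured gene, with dashed lines at 2-fold. The 50 higher genes are red, the 23 lower genes blue, and snoRNA or tRNA genes are triangles; URA8 and GSC2 stand apart at moderate signal, NAB3 and IMD2 (black) lie within 2-fold, and the brightest genes lie below zero.

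Of 9 listed genes that the Nrd1-Nab3 pathway is known to control, 3 were higher in nab3-11 at 25 °C (33.3%, beside 1.17% of all genes) and 0 lower: GSC2, URA8 and NRD1. The other 6 differed by log2 -0.06 to 0.15, and the list median was 0.09, beside 0.01 over all measured genes. The list was chosen with earlier results of these data known, so its share of higher genes describes the list and is no independent test. GSC2, an alternative catalytic subunit of the cell wall glucan synthase, had a signal of 372 in nab3-11 and 92.2 in wild type. Of its 7 probe sets 5 were measured, and their log2 differences were 0.45, 0.98, 2.01, 2.18 and 2.31, so that all were above zero but 2 fell short of 2-fold. On the 37 °C arrays GSC2 stood at 898 in nab3-11 and 708 in wild type, a log2 difference of 0.34.

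URA8, which encodes the minor isozyme of CTP synthase, had a signal of 583 in nab3-11 and 161 in wild type at 25 °C, and of 1246 in nab3-11 and 262 in wild type at 37 °C. NRD1 had 292 in nab3-11 and 126 in wild type at 25 °C, a log2 difference of 1.22, and 717 in nab3-11 and 88.9 in wild type at 37 °C, a log2 difference of 3.01. The log2 difference of URA8 was 1.86 at 25 °C and 2.25 at 37 °C, a smaller gap between temperatures than that of NRD1.

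IMD2, an IMP dehydrogenase gene whose start site choice depends on guanine nucleotides, had 1375 in nab3-11 and 1235 in wild type at 25 °C (log2 difference 0.15), and 1173 in nab3-11 and 572 in wild type at 37 °C (1.04). IMD3, a close paralog of IMD2, differed by -0.02 at 25 °C. The probe sets of IMD2 and IMD3 are of a type that shares probes with similar genes, so their signals may mix the family. URA2, the first enzyme of pyrimidine synthesis, differed by 0.09, ADE12, adenylosuccinate synthase, by 0.03, and HRP1, a subunit of the cleavage and polyadenylation machinery, by -0.04. RPL9B, a ribosomal protein gene under Nrd1-Nab3 feedback, differed by -0.06 at 25 °C and by -1.15 at 37 °C. Its probe set was not classed as unique. These 6 genes were within 2-fold at 25 °C, and IMD2 was higher and RPL9B lower past 2-fold at 37 °C.

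**Figure D2:**
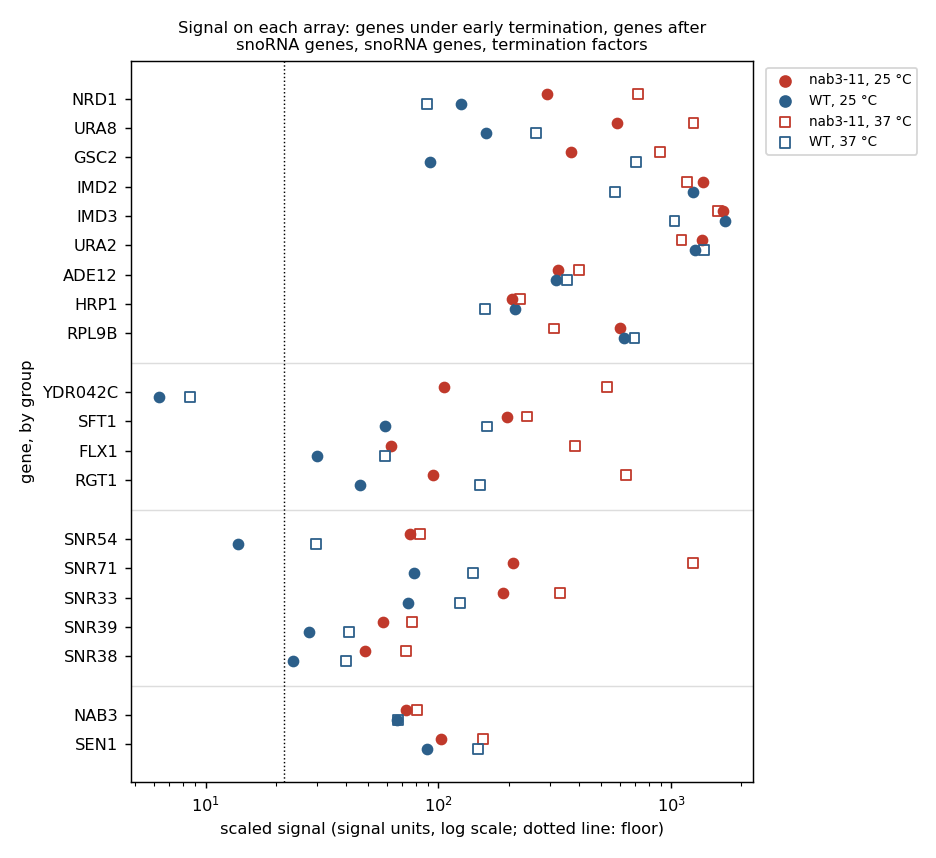
Scaled signal (log scale) of each named gene on the 4 arrays, nab3-11 in red and drawn above wild type in blue, 25 °C as filled circles and 37 °C as open squares, with the floor of 21.8 as a dotted line. At 25 °C the red circle lies clear of the blue one for NRD1, URA8, GSC2, the 4 genes after snoRNA genes and the 5 snoRNA genes, and close to it for IMD2, NAB3 and SEN1.

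Genes of the termination and decay machinery itself made up another list. Of its 23 genes 19 were measured, with a median log2 difference of 0.10. NRD1 was the 1 higher gene (5.26%, beside 1.17% of all genes). MTR3, an exosome core subunit, was the 1 lower gene (5.26%, beside 0.537%). MTR3 had 19.0 in nab3-11, below the floor, and 45.4 in wild type, which makes it at least 2.08-fold lower. NAB3 had 72.3 in nab3-11 and 66.4 in wild type, so the mutant gene's transcript was present at a similar signal. SEN1 had 103 in nab3-11 and 88.9 in wild type, and RRP6, the nuclear exosome nuclease, had 72.8 in nab3-11 and 63.1 in wild type. The catalytic exosome subunit gene DIS3 was at 0.48 and the core subunit gene SKI6 at -0.49, both inside the 2-fold limits. PCF11, AIR1, AIR2 and TRF5 lay below the floor on both 25 °C arrays, so a difference was not detectable.

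Of 61 snoRNA and snRNA genes 36 were measured, and 5 of them (13.9%) were higher, beside 1.17% of all genes, and 0 lower. A positive log2 difference was found in 26 of the 36, beside 51.4% of all measured genes, and the list median was 0.28. After quantile normalization 3 of 38 were higher, and the median was 0.21. On the 37 °C arrays 31 of 48 were higher with a median of 1.43, where 4.76% of all 4769 measured genes were higher and 3.94% lower. Some of the 48, such as SNR14, SNR7-L and SNR34, were measured there through nab3-11 alone, so their difference could only be positive. RNA was amplified from an oligo(dT) primer, which favours polyadenylated RNA, so these signals need not follow the amount of mature snoRNA.

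SNR71, which guides methylation of ribosomal RNA, had 209 in nab3-11 and 78.6 in wild type at 25 °C, and 1240 in nab3-11 and 141 in wild type at 37 °C. SNR33, of the class that guides pseudouridine formation, had 189 in nab3-11 and 74.1 in wild type at 25 °C. For both genes the wild type signal was well above the floor. SNR54 had 75.3 in nab3-11 and 13.8 in wild type, below the floor, and was at least 3.45-fold higher. SNR39 had 58.0 in nab3-11 and 27.8 in wild type, and SNR38 had 48.6 in nab3-11 and 23.8 in wild type, both wild type signals close to the floor.

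Of these 5, SNR54, SNR38 and SNR39 lie inside protein-coding host genes in the annotation, a split made after their values were seen. Of the 4 measured snoRNA genes inside a host, SNR54 differed by 1.79 and its host IMD4 by -0.10, SNR39 by 1.06 and its host RPL7A by -0.27, SNR38 by 1.03 and its host TEF4 by -0.03, and SNR44 by 0.83 and its host RPS22B by -0.37. All 4 hosts were thus within 2-fold, and TEF4 and IMD4 were near even. The hosts were bright, the dimmest being TEF4 with 1388 in nab3-11 and 1418 in wild type. Of the 400 brightest measured genes 304 were below zero, with a median of -0.18, so a value below zero does not set the hosts apart. Among the 32 measured genes not inside a host, 2 were higher (6.25%, beside 1.17% of all genes) and the median was 0.21. Some genes that were far higher at 37 °C were near even at 25 °C: SNR128 had 117 in nab3-11 and 107 in wild type at 25 °C, a log2 difference of 0.12, against 4.30 at 37 °C. The lowest was SNR11, with 86.4 in nab3-11 and 124 in wild type (log2 difference -0.52).

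Protein-coding genes next downstream of a snoRNA or snRNA gene on the same strand, within 1000 bp, form a list in which transcripts that run past a snoRNA end could be counted. Of 35 such genes 28 were measured and 4 (14.3%) were higher, beside 1.17% of all genes, and 0 lower, but the list median was 0.04, and the other 24 were within 2-fold. YDR042C, uncharacterised and behind SNR47, had 105 in nab3-11 and 6.31 in wild type, and was at least 4.82-fold higher. At 37 °C it had 532 in nab3-11 and 8.60 in wild type. It was the only one of the 4 with a wild type signal below the floor at both temperatures.

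SFT1, a Golgi SNARE gene behind SNR87, had 197 in nab3-11 and 59.2 in wild type, a log2 difference of 1.74, against 0.56 at 37 °C. FLX1, a mitochondrial FAD carrier gene behind SNR68, had 62.6 in nab3-11 and 30.2 in wild type, and RGT1, a repressor of hexose transporter genes behind SNR69, had 94.9 in nab3-11 and 46.3 in wild type. FLX1 and RGT1 just passed 2-fold at 25 °C and were at log2 2.72 and 2.09 at 37 °C. Of their snoRNA neighbours, SNR68 differed by 0.88 and SNR69 by -0.08, and SNR47 was below the floor, with 20.1 in nab3-11 and 2.60 in wild type. After quantile normalization 2 of the downstream genes were higher and the median was -0.02. HEM4, behind SNR5, and SEN2, behind SNR79, were higher at 37 °C (1.38 and 1.29) but both at -0.47 at 25 °C.

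Of 91 tRNA genes 64 were measured, with 5 higher (7.81%, beside 1.17% of all genes), 4 lower (6.25%, beside 0.537%) and a median of -0.14. The 5 higher genes were YNCL0044W, YNCP0004C, YNCJ0002C, YNCE0012W and YNCK0005C, with 50.2 to 65.6 in nab3-11 and 21.8 to 26.3 in wild type. Their wild type signals lay close to the floor, and their probe sets are all of a type that shares probes with similar genes. The probe sets of SUP19, YNCP0022W and SUP16, 3 of the 4 lower tRNA genes, are of this type too. That of YNCJ0015W, the other lower gene, was not classed as unique either, so tRNA signals may mix genes. The 5 higher genes were at log2 1.23 to 1.71 at 37 °C. There the whole class had a median of 0.83, and 30 of its 71 measured genes were higher, beside 4.76% of all genes. Some of the 71, such as SUF1 and SUF6, were measured at 37 °C through nab3-11 alone, so their difference could only be positive. The 4 lower tRNA genes, SUP19, YNCP0022W, SUP16 and YNCJ0015W, were at -0.06 to 0.42 at 37 °C.

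Outside the lists described so far, the largest differences fell on genes of several kinds. Whether Nrd1-Nab3 acts on any of these genes was not tested. GIT1, a glycerophosphoinositol transporter gene, had 111 in nab3-11 and 30.7 in wild type, and RKM5, a methyltransferase gene for a ribosomal protein, had 108 in nab3-11 and 32.3 in wild type. GIT1 was the 1 higher gene of 21 of the phosphate list (4.76%, beside 1.17% of all genes), whose median was -0.04. MHP1, a microtubule-associated protein gene, had 194 in nab3-11 and 61.2 in wild type at 25 °C, and 357 in nab3-11 and 328 in wild type at 37 °C. EXG2, an exoglucanase gene, had 98.5 in nab3-11 and 35.4 in wild type at 25 °C, and 133 in nab3-11 and 140 in wild type at 37 °C. For GSC2, MHP1 and EXG2 the wild type level at 37 °C was above the nab3-11 level at 25 °C. ULI1 had 60.3 in nab3-11 and 18.7 in wild type at 25 °C, at least 2.77-fold higher, and 792 in nab3-11 and 41.1 in wild type at 37 °C.

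PYC1, pyruvate carboxylase, had 321 in nab3-11 and 135 in wild type, and QDR2, a multidrug exporter, had 107 in nab3-11 and 40.5 in wild type. YLL066W-B had 287 in nab3-11 and 89.7 in wild type, and both of its measured probe sets were past 2-fold, at 1.68 and 1.02. CYR1, adenylate cyclase, was called from 57.2 in nab3-11 and 23.8 in wild type, but its other measured probe set was at 0.54. Of the 4 called genes with several measured probe sets, YLL066W-B was the 1 in which all passed.

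The lower genes were led by APE1, vacuolar aminopeptidase I, with 26.2 in nab3-11 and 73.0 in wild type at 25 °C and 14.4 in nab3-11 and 194 in wild type at 37 °C. YCL049C had 94.1 in nab3-11 and 253 in wild type, and SMN1 had 44.7 in nab3-11 and 110 in wild type. Of genes for mitochondrial proteins, ZIM17, an Hsp70 partner, had 23.7 in nab3-11 and 62.7 in wild type, and YAH1, a ferredoxin, had 371 in nab3-11 and 781 in wild type. LAT1, a subunit of pyruvate dehydrogenase, had 248 in nab3-11 and 529 in wild type, and GPD2, a glycerol-3-phosphate dehydrogenase gene, had 266 in nab3-11 and 556 in wild type. MIG2, a glucose-dependent repressor gene, had 28.3 in nab3-11 and 64.8 in wild type, and the tRNA methyltransferase gene TRM44 had 35.9 in nab3-11 and 73.9 in wild type. No lower gene reached 3-fold, against 9 of the higher genes. In the lists, CDC33, the cap-binding translation factor, was at -1.04 and RPB11, a polymerase II subunit, at -1.03. RPL36A, measured by a probe set not classed as unique, was at -1.03.

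The 15 endoplasmic reticulum folding and unfolded protein response genes had a median of 0.51. Of the 15, 13 were above zero, beside 51.4% of all measured genes, but 0 at 2-fold. Their top members were LHS1, an ER chaperone, with 137 in nab3-11 and 71.0 in wild type, JEM1, EUG1 and ERO1, at 0.95, 0.90, 0.88 and 0.86 in this order. KAR2, the major ER chaperone, and PDI1 stood at 0.18 and 0.14. The 22 measured general stress genes had a median of 0.36, with 18 above zero, beside 51.4% of all measured genes. HSP12, a membrane-protecting heat shock protein, was the 1 called (4.55% higher, beside 1.17% of all genes). It had 98.5 in nab3-11 and 43.5 in wild type, and at 37 °C 2861 in nab3-11 and 2751 in wild type. The 31 cell wall genes had a median of 0.17 with GSC2 the 1 call (3.23% higher, beside 1.17% of all genes). GFA1, which makes the chitin precursor, was at 0.89.

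**Figure D3:**
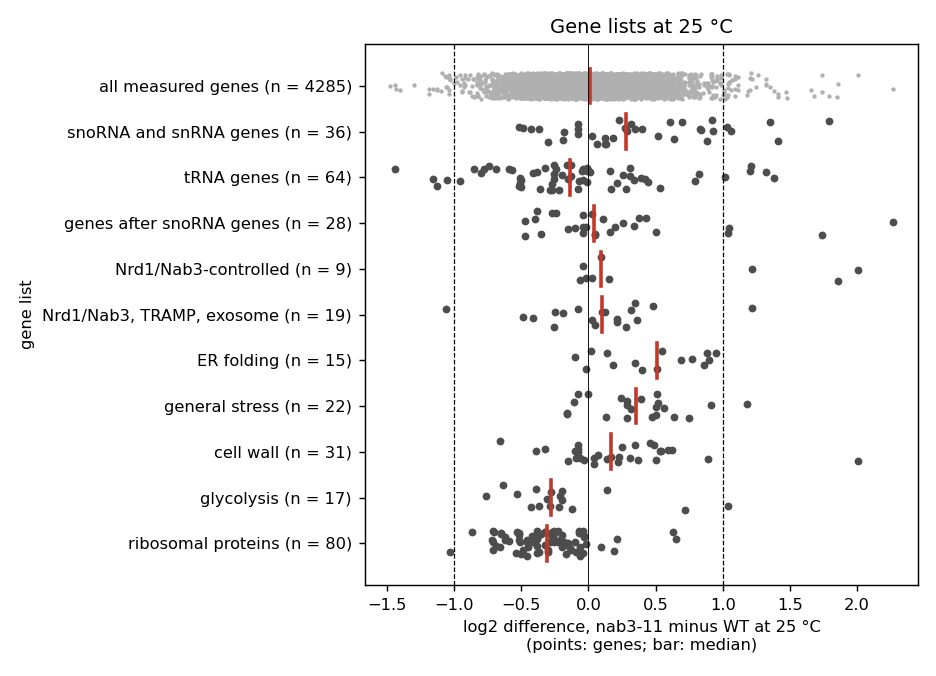
Log2 difference at 25 °C of every measured gene of each list (points) with the list median (red bar) and dashed lines at 2-fold. Most ER folding and general stress genes sit to the right of zero, with only HSP12 past 2-fold, genes after snoRNA genes and Nrd1/Nab3-controlled genes center near zero with a few far to the right, and ribosomal protein genes sit to the left.

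Of 80 ribosomal protein genes 75 lay below zero, and their median was -0.31. RPL36A was the 1 past 2-fold (1.25% lower, beside 0.537% of all genes). The bright end of the arrays as a whole leaned the same way: of the 100 brightest measured genes 99 were below zero, with a median of -0.38. Among genes with a mean signal of at least 2000, those of ribosomal proteins had a median of -0.38 (58 genes) and the others -0.29 (95 genes). The ribosomal protein median was -0.31 with values as deposited and -0.33 with a common median, with 75 below zero in each. After quantile normalization it was -0.06, with 53 below zero and 0 past 2-fold. That step gives every array the same set of values, so it shrinks by construction a lean shared by the brightest genes. It cannot show where the lean comes from, and the source was not tested. Of the 5 above zero, RPL9A, the paralog of the Nrd1-Nab3 feedback target RPL9B, was at 0.65, with 658 in nab3-11 and 419 in wild type, and RPS1B at 0.63. The probe sets of RPL9A and RPS1B, like that of RPL9B, were not classed as unique, and at 37 °C RPL9A was at -1.41 and RPS1B at -0.71. Glycolysis genes had a median of -0.28 with 14 of 17 below zero. Their median was -0.28 as deposited, -0.31 with a common median and 0.09 after quantile normalization. TDH1, a glyceraldehyde-3-phosphate dehydrogenase isozyme, was called higher, though not after quantile normalization, with 964 in nab3-11 and 468 in wild type, and at 37 °C 1861 in nab3-11 and 1804 in wild type.

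The pair of arrays at 37 °C, which shares no array with the 25 °C pair, gave a separate comparison of the same strains. Of the 50 genes higher at 25 °C, 21 (42.0%) were also higher at 37 °C, 11.2% of the 187 higher there among genes measured at both temperatures, and 4.41% of all 4244 such genes were higher at 37 °C. Of the 23 lower genes 5 (21.7%) were also lower at 37 °C, 2.78% of the 180 lower there, where 4.24% of all were lower. The shared lower genes were APE1, YBR053C, SMN1, GPD2 and RPB11. Of all 50 higher genes 19 were further apart at 37 °C than at 25 °C, among them NRD1, URA8, SNR71, FLX1, RGT1 and YDR042C, and the rest were less far apart or turned the other way. All 19 were among the 21 shared genes, which had to pass 2-fold at 37 °C to be counted. The 50 higher genes had a median log2 difference of 0.86 at 37 °C and the 23 lower genes one of -0.40. Across the 4244 genes, the log2 differences at both temperatures had Pearson's r = 0.22 and Spearman's rho = 0.14, a description in which genes are not independent.

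**Figure D4:**
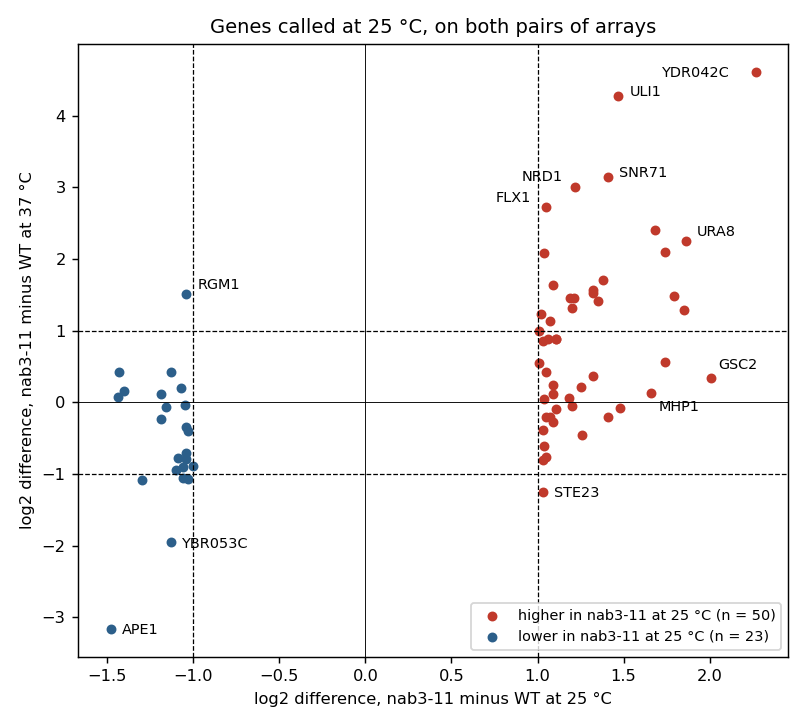
Log2 difference between nab3-11 and wild type at 37 °C against that at 25 °C for the 73 genes called at 25 °C, red for higher and blue for lower in nab3-11, with dashed lines at 2-fold on both axes. Of the 50 higher genes 37 lie above zero at 37 °C, while GSC2 and MHP1 lie close to zero there, and APE1 is the lowest at both temperatures.

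The threshold divided close values. Just inside were SPG5, with 166 in nab3-11 and 82.3 in wild type, SSU1 and YNCK0005C among the higher genes, and MOG1, with 31.7 in nab3-11 and 63.5 in wild type, RPL36A and RPB11 among the lower. Just outside were MET3, with 81.6 in nab3-11 and 40.9 in wild type, CCT7 and RPN2 among the higher, and GUK1, RRN5 and YNCL0035C among the lower.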

How the data were processed

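The authors deposited 1 intensity per probe set and array, not log-transformed; the submitters' processing notes name MAS5 and GCOS 1.1.1. The values show that the authors scaled every array to a trimmed mean close to 150, so a change in total RNA per cell would not be seen. The build behind the array design was not stated, and coordinates are left out. From these values, each array was rescaled to a 2% trimmed mean of 150, and signals below the 40th percentile of all non-control signals were set to that value and log2 was taken, which understates differences of dim genes. Genes with several probe sets used the brightest; 6504 probe sets were matched to the R64 annotation by gene ID for names and neighbours. Of the remaining probe sets 60 were controls, 328 had several genes and 2443 had none; these were kept out of gene counts. A gene was called at 2-fold, and a fold against a signal below the floor is written "at least". The number of arrays limits the precision.

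Named genes were NAB3, NRD1, IMD2 and URA8, the 20 highest and 15 lowest differences with both signals above the floor, the 5 highest and 5 lowest bounds, the Nrd1-Nab3 lists, up to 4 genes of each other list, up to 15 genes called alike at 25 °C and 37 °C, and 3 on each side of the threshold. KAR2, PDI1, RPL9A, RPS1B, URA3, the listed downstream genes and snoRNA genes beyond the rule, and their hosts were named after their values were seen. The members and lists were chosen with earlier results of these data known. Alternatives were values as deposited, a common median, quantile normalization, 25th or 55th percentile floors, an added floor, unique probe sets alone, averaging a gene's probe sets and 3-fold. The calling code was tested on simulated data for its arithmetic only; error rates were not estimated. Python 3.11.15, numpy 2.4.6, pandas 2.3.3 and matplotlib 3.10.9 were used.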

Additional observations from a re-analysis of the deposited data

Results flagged for a closer look

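RGM1 and STE23 passed 2-fold in opposite directions at 25 °C and 37 °C. RGM1, a zinc finger protein gene, had a log2 difference of -1.04 at 25 °C, with 36.2 in nab3-11 and 74.5 in wild type, and of 1.51 at 37 °C, with 230.3 in nab3-11 and 80.6 in wild type. STE23, a metalloprotease gene that acts on the mating pheromone a-factor, had 1.03 at 25 °C, with 99.4 in nab3-11 and 48.7 in wild type, and -1.25 at 37 °C, with 32.1 in nab3-11 and 76.3 in wild type. With 1 array per group, neither difference between temperatures was tested.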

How the results depend on the processing

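Of the counts of 50 higher and 23 lower genes, the higher count was 28 with quantile normalization, 31 with a floor at the 55th percentile, 19 with an added floor and 9 at 3-fold. The lower count was 48 with a floor at the 25th percentile, 12 at the 55th percentile, 5 with an added floor and 0 at 3-fold. Of the 21 genes higher at both temperatures, 10 were left with a floor at the 55th percentile, 10 with an added floor and 4 at 3-fold. For the 5 lower at both, the counts were 11 at the 25th percentile, 3 at the 55th, 0 with an added floor and 0 at 3-fold. A higher or added floor shrinks differences of dim genes by construction; the cause of the lower quantile count was not tested. Of 51 named and called genes, 18 were measured and stayed past 2-fold under every alternative other than 3-fold. Among them were GSC2, URA8, NRD1, SNR71, SNR33, YDR042C, SFT1 and YCL049C. The rest of the 51 fell short of 2-fold or were not measured in some alternative. Probe sets not classed as unique, for example, dropped out when unique probe sets alone were used. None of the 51 reversed direction where measured, and called genes that were not named were not checked for this. The medians of 14 of 46 lists changed sign under some alternative, all close to zero except glycolysis. No paired analysis was possible because the labels give no replicate numbers and each group has 1 array. Depth, here signal over background, limits the 1371 genes not measured at 25 °C.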

Other observations

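Of the 2443 probe sets with no annotated gene, 679 were measured at 25 °C, and 23 (3.39%) were higher and 8 (1.18%) lower in nab3-11, against 1.17% and 0.537% of genes. The gene shares count only the brightest probe set of each gene. Both groups were not matched for signal, with which the called share varied.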
